A study of Mus musculus with 6 samples.

Results

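The complement system was followed in cultured fibroblasts of mouse embryos through 9 genes, chosen by name among the 46983 genes in the count files. They encode the central component C3 (C3), component C4 (C4b), factor B (Cfb), the proteases of the C1 complex (C1ra and C1s1), a protease of the lectin pathway (Masp1) and the inhibitors C1 inhibitor, CD55 and CD59 (Serping1, Cd55 and Cd59a). All 9 symbols were matched to 1 Ensembl gene each. The symbols were chosen as a functional group, by a rule that uses no measured value but with earlier results of these data known. Of the 6 libraries, 3 were labelled SphK2 null and 3 wild type, and the comparison asks how transcripts differ between fibroblasts of these genotypes. SphK2 is sphingosine kinase 2, which makes the lipid signal sphingosine-1-phosphate. Cells of both labels came from C57BL/6 embryos of 14 days, were at passage 16 and were grown in DMEM with 10% FBS, antibiotics, pyruvate and non-essential amino acids. Which part of Sphk2 the null allele lacks is not given in the sources used here, nor is it said that replicates were separate cultures or embryos. The p-values therefore rest on a spread between libraries that may be technical.

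Complement is a cascade of plasma and tissue proteins that marks and lyses targets. The classical pathway starts with C1, the lectin pathway with collectins or ficolins bound to MASP proteases, and both cleave C4 and C2 into an enzyme that cleaves C3. In the alternative pathway, factor B joins deposited C3 and factor D activates it. Membrane and plasma inhibitors stop the cascade at each of these steps. The liver makes most circulating complement, while fibroblasts are known as a local source of several components.

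The libraries labelled SphK2 null held 16804841 to 19148434 counts in genes, and those labelled wild type held 15598566 to 23681718. Sphk2, the gene named in the labels, had 964, 883 and 921 counts in the null-labelled libraries against 654, 418 and 503 in the wild-type-labelled ones. Its level was 50.02 ± 1.35 CPM in null-labelled and 27.3 ± 0.907 CPM in wild-type-labelled libraries (SD, n = 3 each). The difference on the log2 scale was 0.87 ± 0.051 (SE), and the edgeR quasi-likelihood test gave an adjusted p = 4.48e-64. This goes against the direction that the label names, although counts over the whole gene cannot show whether a deleted part is missing, so every direction below is between labels. CPM are counts scaled to the same library total after correction for composition. The listed fibroblast markers were lower in the null-labelled libraries for 10 of 10 genes, beside 41.1% lower among all genes tested. Thy1, Dcn and Lum passed the filter on low counts only through the wild-type-labelled libraries, so these had to be lower. The markers summed to 3357 to 3393 CPM in null-labelled and 12768 to 13163 CPM in wild-type-labelled libraries. Most of the null-labelled sum was Vim, with 3211 ± 17.9 CPM against 5622 ± 115 CPM (SD, n = 3). Col1a1 had 1.68 ± 0.210 CPM against 623 ± 17.0 CPM and Col3a1 8.86 ± 0.423 CPM against 3058.5 ± 76.6 CPM (SD, n = 3). Thy1 had no count under the null label. Markers of macrophages summed to 10.9 to 11.4 CPM in null-labelled and 19.2 to 21.3 CPM in wild-type-labelled libraries, and of the 10 listed 4 passed the filter, 2 higher and 2 lower. Cd14 was lower, with 4.84 ± 0.361 CPM in null-labelled against 16.1 ± 0.937 CPM in wild-type-labelled libraries (SD, n = 3), as was Cd68. The myeloid genes Lyz2 and Csf1r were higher, Lyz2 with 58, 43 and 51 counts in null-labelled libraries, against 1, 0 and 1 in wild-type-labelled libraries, and Csf1r with 24, 21 and 11 counts against 6, 3 and 7. Both passed the filter only through the null-labelled libraries, so these had to be higher. Hepatocyte markers summed to 2.67 to 3.15 CPM against 3.51 to 4.72 CPM, and of 9 listed genes 2 passed the filter, both lower. Of these, Apoa2 passed only through the wild-type-labelled libraries and so had to be lower. Among the hepatocyte genes that did not pass, Hnf4a had 12, 6 and 18 counts in null-labelled libraries, against 0, 0 and 1 in wild-type-labelled libraries. Epithelial markers summed to 385 to 412 CPM against 108 to 111 CPM, of which Krt8 made up 397 ± 13.4 CPM against 107 ± 1.80 CPM (SD, n = 3). Of the 10 listed epithelial genes 4 passed the filter, Krt8 and Krt7 higher, Krt18 lower and Grhl2 not past the threshold, and Krt7 had 19, 22 and 29 counts under the null label, against 1 count in each library under the wild-type label. Krt7 passed only through the null-labelled libraries and Krt18 only through the wild-type-labelled ones, so these had to differ. Endothelial markers summed to 54.6 to 58.0 CPM in null-labelled and 113 to 127 CPM in wild-type-labelled libraries, and of 8 listed genes 4 passed the filter, 2 higher and 2 lower. Among these, Cdh5 passed only through the wild-type-labelled libraries and so had to be lower. Flt1 was lower at 2.58 ± 0.0928 CPM in null-labelled against 88.2 ± 5.59 CPM in wild-type-labelled libraries, while Eng was higher at 50.9 ± 2.13 CPM against 28.6 ± 1.23 CPM (SD, n = 3), as was Pecam1. The macrophage genes Ptprc, Adgre1, Aif1 and Tyrobp, the epithelial genes Epcam and Esrp1 and the hepatocyte gene Alb had 0 to 5 counts in every library. The part of these markers in the results below was not tested. In bulk RNA, fewer cells of a type and less RNA per cell cannot be told apart.

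C3 was the most abundant of the 9 transcripts in the null-labelled libraries and differed from the wild-type-labelled ones by more than an order of magnitude. In the same libraries Masp1 was all but absent, Serping1 was far lower and Cd59a was higher. C1ra and C1s1 stood within 1.3-fold of the other group. C4b, Cfb and Cd55 had at most 9 counts in any library. Of the 9 genes, 6 passed the filter on low counts, 2 of them higher (C3 and Cd59a), 3 lower (Masp1, Serping1 and C1s1) and 1 (C1ra) not past an edgeR adjusted p of 0.05. Across all 15199 genes tested, 79.2% passed that threshold, 38.1% as higher and 41.1% as lower, so a share of called genes as such says little about complement. Masp1 and Serping1 passed the filter only through the wild-type-labelled libraries and Cd59a only through the null-labelled ones, so these had to differ. As a description, the median log2 fold change was -0.14 over the 6 genes and -0.02 over all genes tested.

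**Figure D1:**
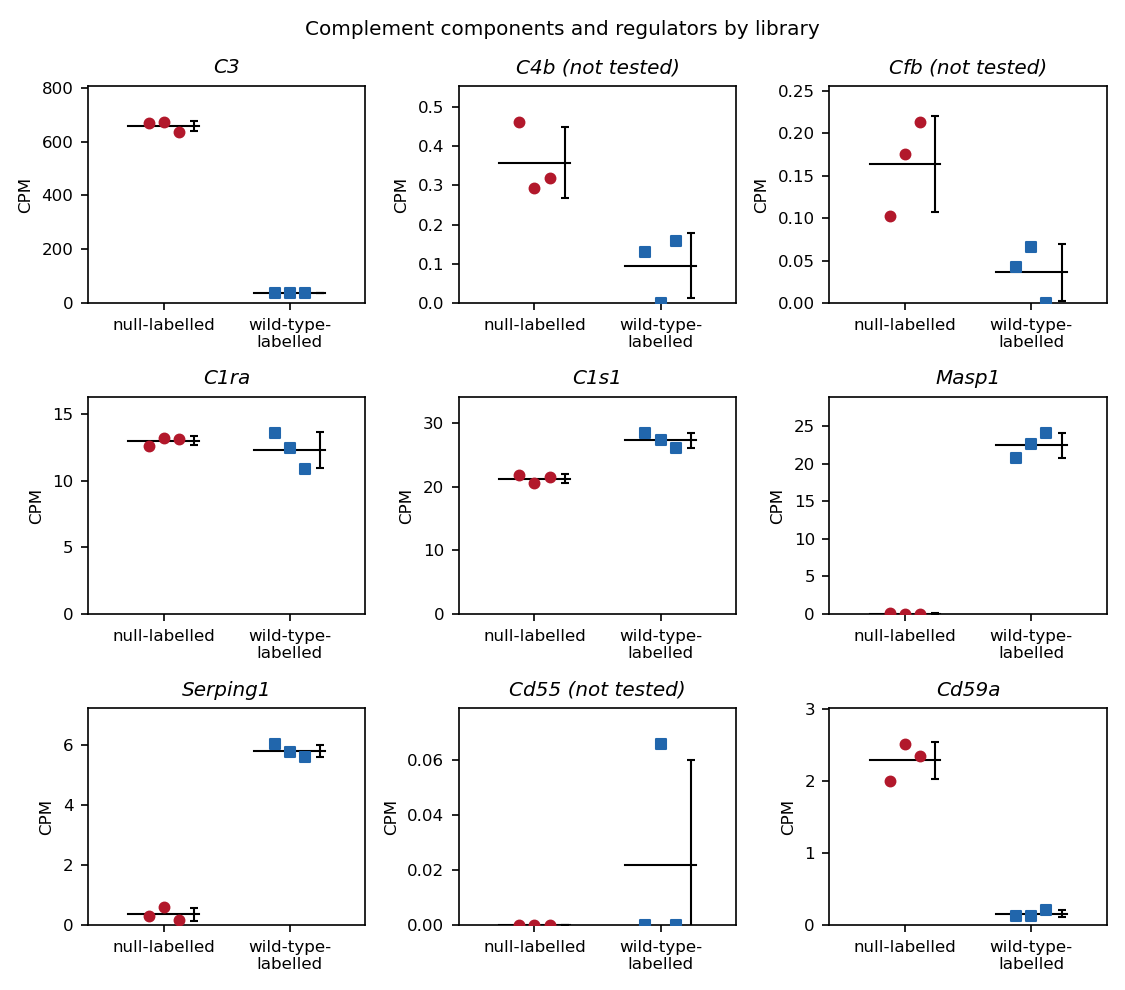
Levels of the 9 complement genes in each library in CPM, null-labelled (red circles) left of wild-type-labelled (blue squares). Lines are means and bars SD of 3 libraries, each axis starts at 0, and the 3 genes marked as not tested had too few counts; C3 and Cd59a stand higher and Masp1 and Serping1 lower in the null-labelled libraries without overlap.

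C3, the protein on which all activation pathways converge, had 13039, 11511 and 11959 counts in the null-labelled libraries, against 894, 588 and 731 in the wild-type-labelled ones. The levels were 668, 672 and 637 CPM in null-labelled libraries, against 38.5, 38.6 and 38.3 CPM in wild-type-labelled libraries. Every null-labelled library was thus far above every wild-type-labelled one, and the wild-type-labelled libraries were almost equal. On the log2 scale C3 was higher by 4.10 ± 0.031 (SE), a 17.2-fold difference, and its edgeR adjusted p is one that the program wrote as 0 because it was too small to be represented. Over 8-fold higher at an adjusted p under 0.05 were 2.58% of all genes tested. By reads per kilobase of exon, C3 ranked 335 to 380 among all genes in the null-labelled libraries and 7221 to 7286 in the wild-type-labelled ones. C3 (ENSMUSG00000024164) occupies bases 57203970 to 57228136 of chromosome 17, read from the minus strand (GRCm38, mm10 names). None of its exonic bases belongs to another gene of the files. None of the 51-base windows of its transcripts, the length of the reads, occurs in an annotated transcript of another gene.

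The starts of 5 of the 9 genes were matched to RefSeq promoter windows of build GRCm38.p6, 250 bases before to 50 after the start. They are shown because the expression of C3 differed most among the tested genes that have a window, while C1ra and C1s1 were within 1.3-fold in the same libraries. Capitals mark matches, on either strand, to motifs of factors known to act on complement genes: TTCNNNGAA for STAT, GAAA and GAAA with any 2 bases between for IRF, GGG and TTTCC with any 2 bases between for NF-kappaB, and TTGCNNAA for C/EBP.
C3, chr17:57228087-57228386, minus strand: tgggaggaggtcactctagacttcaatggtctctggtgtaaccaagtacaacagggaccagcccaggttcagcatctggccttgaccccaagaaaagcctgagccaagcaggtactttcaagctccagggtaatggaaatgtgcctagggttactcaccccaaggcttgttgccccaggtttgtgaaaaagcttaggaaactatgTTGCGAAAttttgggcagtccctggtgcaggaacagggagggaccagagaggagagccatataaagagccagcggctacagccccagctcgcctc
C1ra, chr6:124512371-124512670, plus strand: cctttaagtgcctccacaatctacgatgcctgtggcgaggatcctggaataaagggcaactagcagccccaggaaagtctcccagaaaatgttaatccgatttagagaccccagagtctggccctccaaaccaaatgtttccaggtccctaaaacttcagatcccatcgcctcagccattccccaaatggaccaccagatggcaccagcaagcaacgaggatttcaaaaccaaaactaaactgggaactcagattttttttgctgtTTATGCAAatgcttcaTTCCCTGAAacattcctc
C1s1, chr6:124542310-124542609, minus strand: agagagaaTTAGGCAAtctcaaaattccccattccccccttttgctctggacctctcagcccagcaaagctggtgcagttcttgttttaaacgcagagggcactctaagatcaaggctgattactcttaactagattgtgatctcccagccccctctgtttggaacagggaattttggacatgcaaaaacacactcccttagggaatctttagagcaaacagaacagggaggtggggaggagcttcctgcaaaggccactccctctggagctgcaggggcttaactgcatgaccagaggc
Cd59a, chr2:104095551-104095850, plus strand: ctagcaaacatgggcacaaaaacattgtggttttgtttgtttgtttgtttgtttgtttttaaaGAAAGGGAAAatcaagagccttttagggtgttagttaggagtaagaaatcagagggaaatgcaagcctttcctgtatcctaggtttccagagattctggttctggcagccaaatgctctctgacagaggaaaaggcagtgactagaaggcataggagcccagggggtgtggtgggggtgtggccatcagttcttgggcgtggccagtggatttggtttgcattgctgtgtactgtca
The C3 window held 1 match, a C/EBP motif whose first base lay at -45 from the start, and the C/EBP motif occurs in 10.8% of all 32851 RefSeq windows of this length. The C1ra window held a STAT match at position 33 and a C/EBP match at position 17, both after the start. The C1s1 window held a C/EBP match at -242, and its other RefSeq start held no match. The Cd59a window held an IRF match at -187. STAT motifs occur in 8.30%, IRF motifs in 3.44% and NF-kappaB motifs in 1.63% of all windows, and no matches overlapped. The Cd55 window held no match. The genes C4b, Cfb, Masp1 and Serping1 had no window. A match is a description of these letters, not a site of binding.

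C1ra and C1s1, the proteases C1r and C1s that act in the C1 complex, were measured at similar levels under both labels. C1ra had 12.7, 13.3 and 13.2 CPM in null-labelled libraries, against 13.6, 12.5 and 10.9 CPM in wild-type-labelled libraries, and the groups overlapped. The difference was 0.072 ± 0.084 on the log2 scale (SE; edgeR adjusted p = 0.427), and the ratio of summed counts had a 95% counting interval of 0.945 to 1.17. C1s1 had 21.8, 20.6 and 21.5 CPM in null-labelled libraries, against 28.4, 27.4 and 26.1 CPM in wild-type-labelled libraries. Its groups did not overlap, as in 79.9% of all genes tested, and the difference was -0.36 ± 0.062 on the log2 scale (SE; edgeR adjusted p = 1.18e-08). Within a library, C1s1 per kilobase was 1.48 to 1.64 times C1ra under the null label and 1.99 to 2.28 times under the wild-type label. These ratios rest on partial counts. Of the 51-base windows of C1ra transcripts, 50.4% also occur in its paralogue C1rb or in Gm18840, and of those of C1s1, 34.6% also occur in its paralogue C1s2 or in Gm16567. Of the 3129 exonic bases of C1s1, 576 (18.4%) also belong to the antisense gene Gm16567, and reads there were not counted because strand was not used. C1rb had 6, 3 and 8 counts in null-labelled libraries, against 6, 3 and 2 in wild-type-labelled libraries. C1s2, with 78.3% of its exonic bases in an overlapping gene, had 5, 4 and 2 counts under the null label, against 3, 2 and 0 under the wild-type label. C1ra, C1s1, C1rb and C1s2 lie within 0.2 megabases of each other on chromosome 6, together with C1rl, a protease related to C1r, which had 7.92 ± 0.360 CPM in null-labelled and 8.15 ± 1.30 CPM in wild-type-labelled libraries (SD, n = 3; edgeR adjusted p = 0.601).

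C1q, the part of C1 that recognizes targets, was all but missing. C1qa and C1qc had 0 counts in all 6 libraries, and C1qb had 1 count in 1 null-labelled library. The counts of 0 allow up to 3 counts per library, which is 0.157 to 0.179 CPM in null-labelled and 0.127 to 0.192 CPM in wild-type-labelled libraries. C4b, the second target of C1s beside C2, had 9, 5 and 6 counts in null-labelled libraries, against 3, 0 and 3 in wild-type-labelled libraries. The ratio of the summed counts, scaled for library size, was 3.47 with an exact binomial 95% counting interval of 1.34 to 10.5. Without the filter on low counts, edgeR gave C4b an adjusted p = 0.0214. Its near-identical neighbour C4a had 11, 9 and 4 counts under the null label, against 4, 3 and 8 under the wild-type label, and 33.9% of the windows of C4b transcripts occur also in C4a, so reads from these parts cannot be assigned to either gene. C2, the protease that joins C4, had 8.61, 9.99 and 10.2 CPM in null-labelled libraries, against 2.58, 2.82 and 1.94 CPM in wild-type-labelled libraries. It was higher by a log2 fold change of 1.97 ± 0.13 (SE; edgeR adjusted p = 1.16e-48), with no overlap of the groups.

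Masp1 encodes the lectin pathway proteases MASP-1 and MASP-3, and its count does not separate splice forms. The count covers 2752 exonic bases, while the annotated transcripts searched for shared windows held 9736 different 51-base windows of Masp1. Parts of some splice forms may therefore be uncounted. Masp1 had 2, 0 and 0 counts in null-labelled libraries, against 482, 345 and 460 in wild-type-labelled libraries. The wild-type-labelled libraries stood at 22.5 ± 1.68 CPM (SD, n = 3) while only 1 null-labelled library had any count. The level was 619-fold lower by summed counts, with an exact binomial 95% counting interval of 171 to 5117 and an edgeR adjusted p = 1.14e-322. Over 8-fold lower at an adjusted p under 0.05 were 8.68% of all genes tested. Colec12, a membrane scavenger collectin, was lower as well, with 0.257 ± 0.0987 CPM in null-labelled and 112 ± 4.95 CPM in wild-type-labelled libraries (SD, n = 3; log2 fold change -8.75 ± 0.11 SE, adjusted p also written as 0). By summed counts Colec12 was 442-fold lower, with a 95% counting interval of 263 to 809, which is wider than this SE implies. Colec11, a soluble collectin that binds MASP proteases, was higher at 0.736 ± 0.0890 CPM in null-labelled against 0.314 ± 0.227 CPM in wild-type-labelled libraries (SD, n = 3; edgeR adjusted p = 0.00281). The mannose-binding lectins Mbl1 and Mbl2, the collectin Colec10, the ficolin Fcnb and the protease Masp2 had 0 to 3 counts in every library. For Masp2, 54.9% of the exonic bases also belong to Tardbp and were left uncounted. The other ficolin, Fcna, had 14, 7 and 15 counts under the null label, against 8, 4 and 7 under the wild-type label, and did not pass the filter.

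Factor B, the C3-cleaving protease of the alternative pathway, could hardly be measured here. Cfb had 2, 3 and 4 counts in null-labelled libraries, against 1, 1 and 0 in wild-type-labelled libraries. The ratio was 4.68 with an exact binomial 95% counting interval of 0.968 to 44.5, and edgeR without the filter gave an adjusted p = 0.106. Of its 2825 exonic bases, 2246 (79.5%) also belong to Gm20547, a gene on the same strand that spans Cfb and C2, and reads over them were assigned to neither gene. Gm20547 itself had 0 counts in all libraries. Over the 579 bases left, Cfb stood at 0.283 ± 0.0972 CPM per kilobase in null-labelled and 0.0625 ± 0.0576 CPM per kilobase in wild-type-labelled libraries (SD, n = 3). C2 loses 46.9% of its exonic bases to Gm20547 and Zbtb12 in the same way. The other genes of the alternative pathway were higher. Cfd, factor D, had 2.41, 1.81 and 2.35 CPM in null-labelled libraries, against 0.817, 0.787 and 0.366 CPM in wild-type-labelled libraries (log2 fold change 1.73 ± 0.26 SE, edgeR adjusted p = 9.15e-11). Cfp, properdin, which stabilizes the alternative pathway enzyme, had 5.84, 6.07 and 4.90 CPM under the null label, against 4.17, 4.26 and 3.87 CPM under the wild-type label (0.45 ± 0.14 SE, adjusted p = 0.00128).

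Serping1 encodes C1 inhibitor, the plasma inhibitor of C1r, C1s and the MASP proteases. It had 6, 10 and 3 counts in null-labelled libraries, against 140, 88 and 107 in wild-type-labelled libraries. The levels were 0.307, 0.584 and 0.160 CPM in null-labelled libraries, against 6.02, 5.77 and 5.60 CPM in wild-type-labelled libraries. No null-labelled library came near the wild-type-labelled range, and Serping1 was lower by a log2 value of -4.06 ± 0.24 (SE; edgeR adjusted p = 7.76e-64). Per kilobase, Serping1 stood at 0.01002 to 0.0382 of the level of C1s1 in null-labelled libraries and at 0.284 to 0.289 of it in wild-type-labelled ones.

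CD55 and CD59 are anchored in the cell membrane, where CD55 speeds the decay of the C3-cleaving enzymes and CD59 blocks the membrane attack complex. Cd55 had 1 count in 1 wild-type-labelled library and 0 in the other 5, and its paralogue Cd55b had 0 in all 6. Cd59a had 39, 43 and 44 counts in null-labelled libraries, against 3, 2 and 4 in wild-type-labelled libraries. The levels were 2.00, 2.51 and 2.35 CPM in null-labelled libraries, against 0.129, 0.131 and 0.209 CPM in wild-type-labelled libraries, so the groups were far apart although the gene is low in both. Cd59a was higher by 3.81 ± 0.36 on the log2 scale (SE; edgeR adjusted p = 1.12e-25). Its paralogue Cd59b had 7, 5 and 7 counts under the null label, against 3, 3 and 2 under the wild-type label, and 3.70% of the 51-base windows of Cd59a transcripts occur in it.

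Ordered by level per kilobase, the null-labelled libraries ran from C3 (128 ± 3.69 CPM per kilobase) over C1s1 (6.80 ± 0.203), C1ra (4.37 ± 0.109) and Cd59a (1.26 ± 0.145) to Serping1 (0.151 ± 0.0926), with SD over 3 libraries. In the wild-type-labelled libraries the order was C1s1 (8.72 ± 0.372), Masp1 (8.17 ± 0.610), C3 (7.47 ± 0.0303), C1ra (4.13 ± 0.456), Serping1 (2.49 ± 0.0910) and Cd59a (0.0864 ± 0.0253). The order of C1s1 and Masp1 depends on the length used: their means ± SD overlap over the full exonic length, whereas C1s1 stood at 10.7 ± 0.456 CPM per kilobase in wild-type-labelled libraries over the 2553 bases that no other gene shares. In the null-labelled libraries C4b, Cfb and Masp1 followed Serping1 at few counts, and in the wild-type-labelled ones C4b and Cfb followed Cd59a, and their order is not resolved. Of the summed level per kilobase of the 58 listed complement genes, C3 made up 37.3% to 38.0% in null-labelled libraries and 2.69% to 2.73% in wild-type-labelled ones. Leaving out C1qbp, Clu and Thbd, which have main roles outside complement, the share of C3 was 78.8% to 80.04% under the null label and 9.22% to 9.60% under the wild-type label. The wild-type share depends on keeping the scavenger collectin Colec12. It held 33.8 ± 1.49 CPM per kilobase (SD, n = 3) of a sum of 77.5 to 81.4 there, and 0.0773 ± 0.0297 under the null label. Without C3, the sum over all 58 genes was 208 to 215 CPM per kilobase under the null label and 265 to 271 under the wild-type label. The genes closest to C3 in log2 CPM over the 6 libraries were Gm6977, Ano1 and Gab1, with root mean square differences of 0.81, 0.83 and 0.97. Ano1, a chloride channel, had 379 ± 5.82 CPM in null-labelled and 70.0 ± 2.27 CPM in wild-type-labelled libraries (SD, n = 3). None of the 3 thus came close to the contrast of C3.

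**Figure D2:**
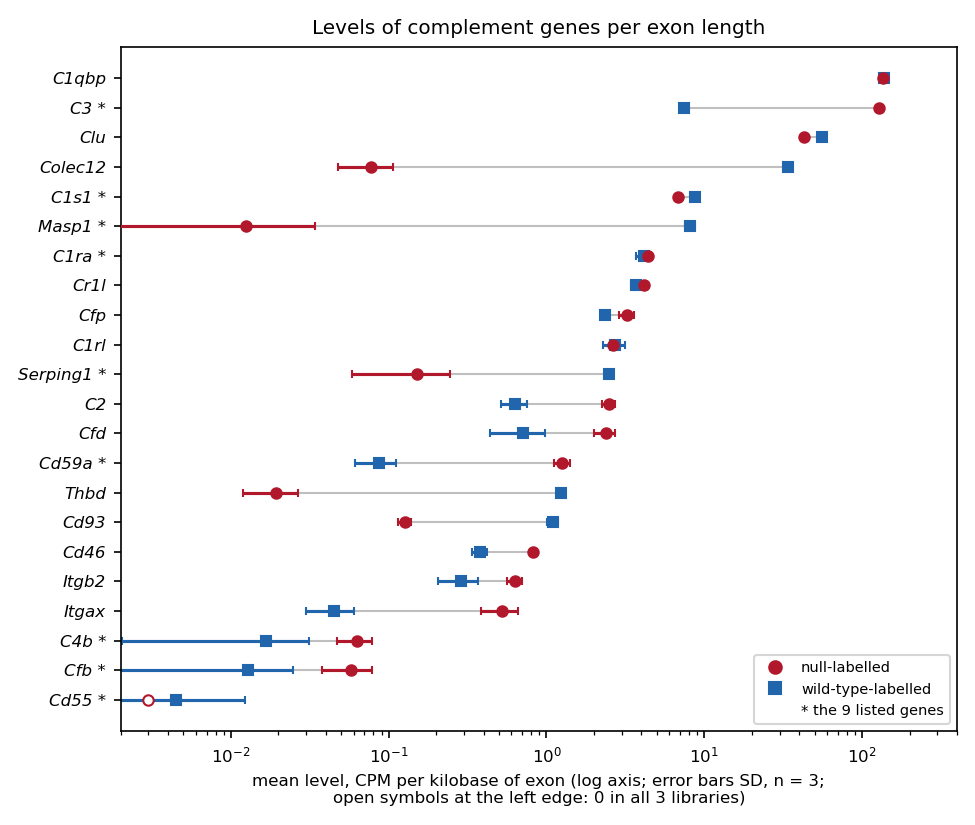
Mean levels in CPM per kilobase of exon (log axis) of the 9 listed complement genes (starred) and 13 other complement genes named by rule, null-labelled as red circles and wild-type-labelled as blue squares, with SD over 3 libraries. Bars that reach 0 run to the left edge and open symbols stand for 0 in all 3 libraries; C3 moves across more than an order of magnitude while C1ra and C1qbp lie close together under both labels.

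Of 49 further genes of the complement system, 17 passed the filter. In null-labelled against wild-type-labelled libraries, 8 of them were higher, 6 lower and 3 not past the threshold. Their median log2 fold change was 0.18, against -0.02 over all genes. Among all genes tested 79.2% were called, and Colec11, Colec12, Cfd, Susd4, Thbd and Itgax were among those that passed the filter through 1 group only. Of the 32 that did not pass, 10 had no count at all and none exceeded 16 counts in a library. The terminal components C6, C7, C8a and C8b had 0 counts in all libraries, C9 had 1 count in 1 wild-type-labelled library and Hc, the gene of C5, had 3 to 4 counts in null-labelled and 4 to 12 in wild-type-labelled libraries. C8g, a C8 subunit and lipocalin, had 2.11 ± 0.313 CPM in null-labelled against 1.62 ± 0.336 CPM in wild-type-labelled libraries (SD, n = 3; edgeR adjusted p = 0.128).

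Of 15 other inhibitors and related regulators, 7 passed the filter, 2 of them higher, 4 lower and 1 not past the threshold. Among all genes tested, 38.1% were higher and 41.1% lower, so these counts say little about inhibitors. Thbd and Susd4 were among those that passed only through the wild-type-labelled libraries and so had to be lower. Thbd, thrombomodulin, which also promotes inactivation of C3b, had 2, 1 and 1 counts under the null label, against 110, 66 and 90 under the wild-type label. Susd4, a membrane inhibitor, had 1 count in the null-labelled libraries against 77 in the wild-type-labelled ones (ratio 74.1-fold lower, 95% counting interval 12.9 to 2963). Cr1l, which encodes Crry, the broadly expressed membrane inhibitor of rodents, was near even at 43.0 ± 0.894 CPM in null-labelled and 38.0 ± 2.37 CPM in wild-type-labelled libraries (SD, n = 3; log2 fold change 0.18 ± 0.049 SE, edgeR adjusted p = 0.000402). Cd46, a cofactor for the cleavage of C3b, was higher at 6.25 ± 0.183 CPM in null-labelled against 2.87 ± 0.322 CPM in wild-type-labelled libraries (SD, n = 3; adjusted p = 1.62e-14 by edgeR). Clu, clusterin, a secreted chaperone that blocks the terminal complex, had 147 ± 4.49 CPM under the null label against 192 ± 4.42 CPM under the wild-type label (SD, n = 3; -0.38 ± 0.029 SE, edgeR adjusted p = 5.65e-39). C1qbp, a C1q-binding protein found mainly in mitochondria, stood at 383 ± 6.21 CPM against 391 ± 7.32 CPM (SD, n = 3; edgeR adjusted p = 0.268). Per kilobase, C3 was 29.2 to 32.0 times Cr1l in null-labelled libraries and 1.96 to 2.18 times in wild-type-labelled ones.

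The listed complement receptors were low, apart from Cd93 in wild-type-labelled libraries. Itgax, the alpha chain of complement receptor 4, had 51, 31 and 58 counts in null-labelled libraries, against 6, 2 and 5 in wild-type-labelled libraries (log2 fold change 3.45 ± 0.32 SE, edgeR adjusted p = 5.51e-26). Its partner chain Itgb2 was higher as well, at 1.92 ± 0.203 CPM in null-labelled against 0.875 ± 0.253 CPM in wild-type-labelled libraries (SD, n = 3; edgeR adjusted p = 1.55e-05). Both genes are known mainly from leukocytes, whose common marker Ptprc had 4, 2 and 5 counts in null-labelled libraries, against 1, 3 and 3 in wild-type-labelled libraries. Of the 4 macrophage markers tested, Lyz2 and Csf1r were higher, by 6.05 ± 0.45 and 1.84 ± 0.38 on the log2 scale (SE; edgeR adjusted p = 6.85e-40 and 2.14e-06). Like Itgax, both passed the filter only through the null-labelled libraries and so had to be higher. Cd14 and Cd68 went the other way, with log2 fold changes of -1.73 ± 0.1 and -0.72 ± 0.18 (SE). The part of these markers in the result for Itgax and Itgb2 was not tested. Cd93, a membrane protein once described as a C1q receptor, was lower at 0.845 ± 0.0767 CPM in null-labelled against 7.30 ± 0.568 CPM in wild-type-labelled libraries (SD, n = 3; edgeR adjusted p = 2.32e-62). The anaphylatoxin receptor C3ar1 had 16, 6 and 7 counts under the null label, against 3, 6 and 3 under the wild-type label. C5ar1, the C5a receptor, had 8, 3 and 7 counts in null-labelled libraries, against none in the wild-type-labelled ones. Neither receptor passed the filter, and edgeR without the filter gave an adjusted p = 0.0253 for C3ar1 and 2.27e-05 for C5ar1.

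**Figure D3:**
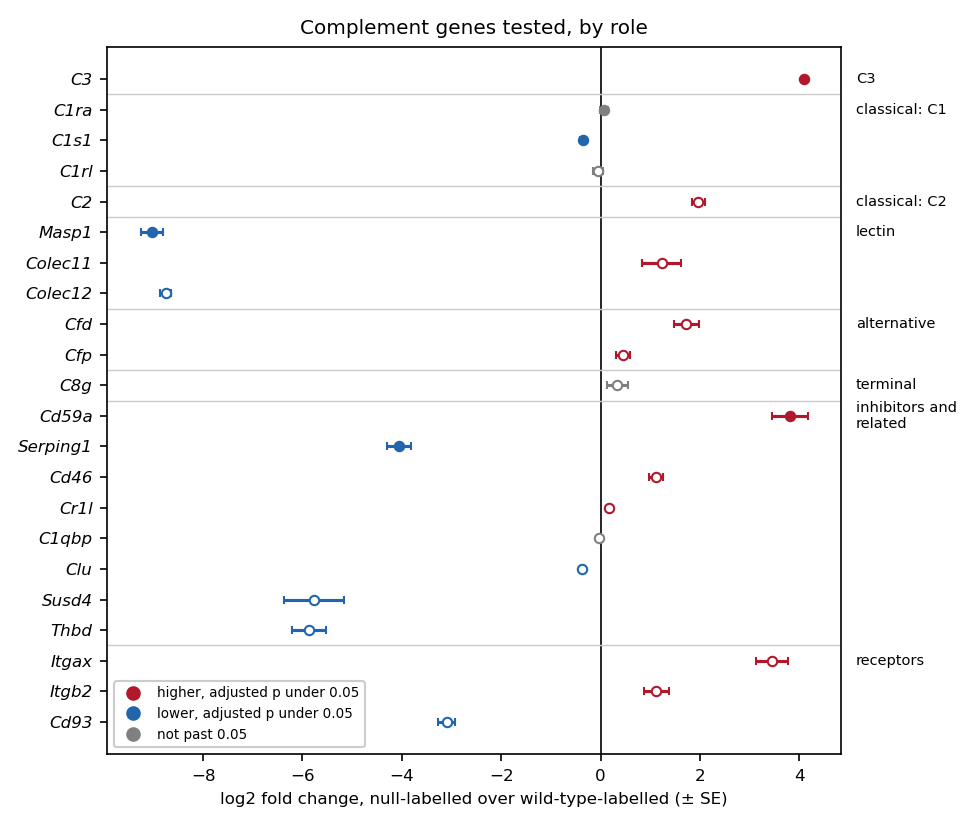
Fitted log2 fold changes, null-labelled over wild-type-labelled, with SE, of 22 complement genes that passed the filter, by role; filled symbols are listed genes and open symbols other genes of the system, red higher, blue lower, grey not past an edgeR adjusted p of 0.05. C3, C2, Cfd and Cfp lie right of 0 and Masp1, Colec12, Thbd and Serping1 left of it. Values of genes at or near 0 in a group, such as Masp1, depend on the prior count and are no bounds. The SE bars of such genes can be too short.

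Complement transcription is known to respond to interleukins, interferons and tumour necrosis factor through C/EBP, STAT, IRF, NF-kappaB and nuclear receptor factors, and 32 genes of these signals were listed. Of these, 26 passed the filter, of which 17 fell and 7 rose under the null label, while 2 missed the threshold, beside 41.1% lower and 38.1% higher among all genes tested. Lifr, Cebpa and Il6 passed the filter only through the wild-type-labelled libraries and so had to be lower. As a description, the median of the 26 log2 differences was -0.98, against -0.02 over all genes. The genes of the C/EBP family, whose motif stands in windows of C3, C1ra and C1s1, went both ways. Their part in the levels of these genes was not tested. Cebpb had 245, 222 and 258 CPM in null-labelled libraries, against 71.2, 76.7 and 69.2 CPM in wild-type-labelled libraries, a log2 fold change of 1.75 ± 0.033 (SE; edgeR adjusted p = 3.34e-155). Cebpd had 2.46, 1.99 and 2.99 CPM under the null label, against 29.3, 31.0 and 25.7 CPM under the wild-type label (-3.52 ± 0.10 SE, adjusted p = 6.28e-265). Cebpa had 0, 1 and 0 counts in null-labelled libraries, against 184, 131 and 160 in wild-type-labelled libraries. None of these 3 genes had overlapping groups, as in 79.9% of all genes tested.

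Receptors differed as well. Il6ra, the ligand-binding receptor of interleukin-6, was higher at 159.9 ± 2.53 CPM in null-labelled against 50.4 ± 2.11 CPM in wild-type-labelled libraries (SD, n = 3; log2 fold change 1.67 ± 0.036 SE). Tnfrsf1a, the main receptor of tumour necrosis factor, was higher at 251 ± 4.81 CPM in null-labelled against 104 ± 3.04 CPM in wild-type-labelled libraries (SD, n = 3; 1.28 ± 0.029 SE). The interleukin-1 receptor Il1r1 was lower, at 16.1 ± 0.951 CPM in null-labelled against 145 ± 4.47 CPM in wild-type-labelled libraries (SD, n = 3; -3.17 ± 0.047 SE). Lifr, the receptor of leukaemia inhibitory factor, had no count under the null label and 188, 146 and 126 under the wild-type label, and was at least 148-fold lower, with 3 counts set over the 3 libraries at 0. The 4 interferon receptor chains Ifngr1, Ifngr2, Ifnar1 and Ifnar2 were all lower, by log2 fold changes of -0.70 to -2.15. Nr1h3, the liver X receptor alpha, was higher at 10.1 ± 1.55 CPM in null-labelled against 2.04 ± 0.305 CPM in wild-type-labelled libraries (SD, n = 3; edgeR adjusted p = 1.45e-61). Stat2, Irf1, Irf9 and Nfkb1 were lower, Stat3 was higher by 0.36 ± 0.030 (log2 fold change, SE), and Rela and Nfkb2 did not pass the threshold. Of the cytokines themselves, Il6 had 4, 6 and 8 counts in null-labelled libraries, against 50, 30 and 32 in wild-type-labelled libraries. Tnf had 10, 14 and 13 counts under the null label, against 3, 0 and 1 under the wild-type label, and did not pass the filter. Ifng, Ifnb1 and Il1b had 0 to 5 counts in every library.

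**Figure D4:**
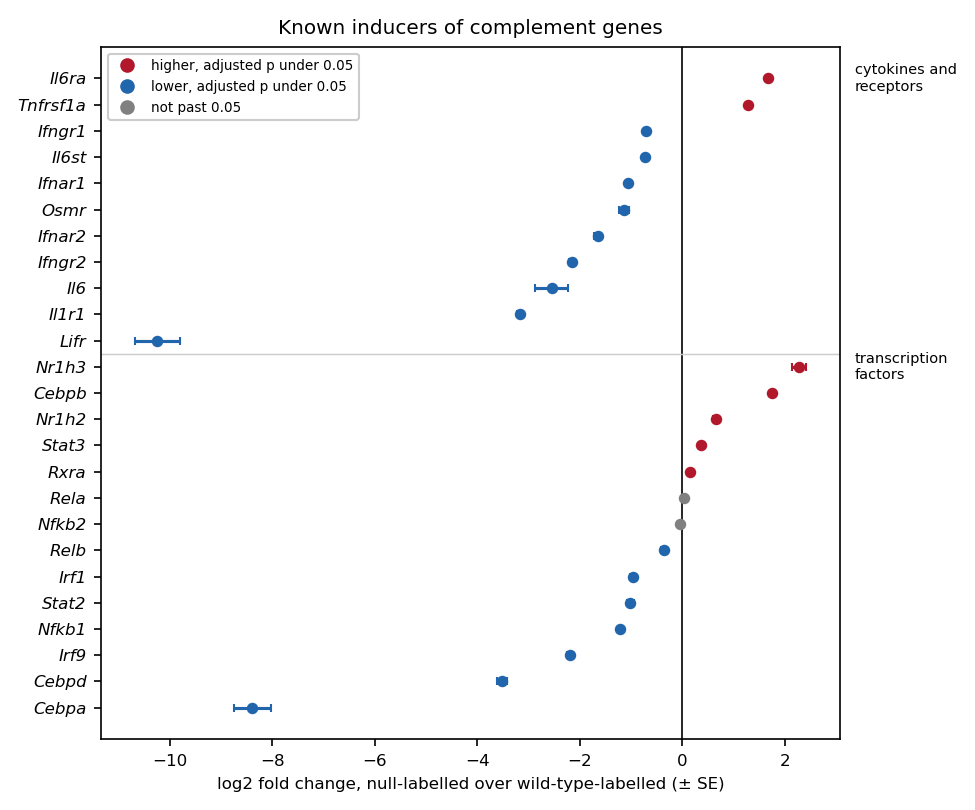
Fitted log2 fold changes, null-labelled over wild-type-labelled, with SE, of 25 tested genes known to act on complement transcription, with cytokines and receptors above transcription factors. Cebpb, Il6ra, Tnfrsf1a and Nr1h3 lie right of 0 while Cebpa, Cebpd, Il1r1 and the interferon receptor chains lie left of it. The values of Lifr and Cebpa, at 0 or 1 count in the null-labelled libraries, depend on the prior count, and their SE bars can be too short.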

How the data were processed

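RNA was sequenced from 3 SphK2 null and 3 wild-type libraries as single reads of 51 bp, per the labels' protocols. The deposited values are raw counts of reads per gene, made by the authors with featureCounts 1.6.2 over exons of Ensembl release 83 (GRCm38), per the file headers, with no strand, multimapping or overlap option set. Reads over exons of several genes are then left out. The submitters' processing notes name featureCounts 1.2.6, unlike the headers, and also Subread 1.6.2, FastQC 0.11.2 and Trimmomatic 0.33. Of 46983 genes, 98.9% had a symbol.

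Genes kept by filterByExpr (15199) were tested with edgeR 4.0.16 in R 4.3.3, with TMM factors and the robust quasi-likelihood F-test, two-sided, without covariates, Benjamini-Hochberg adjusted over all genes. SE is the log2 fold change over the square root of F. For genes near 0 in a group it can be too small. That of Masp1 was 0.23, against 1 with DESeq2 and 0.49 with limma-voom. Counting intervals are exact binomial at 95%, and they and bounds cover counting error only. A gene at 0 in a group was set to 3 counts over its 3 libraries. A count of 3 per library corresponds to 0.127 to 0.192 CPM. Levels per kilobase use the exonic length in the files. The fit was tested on simulated data. Named were the 9 genes, the other complement genes whose mean log2 CPM reached 1 (or 0 with an adjusted p under 0.05), the paralogues, the 4 inducers with the largest called differences each way, and the 3 genes nearest C3. Further genes in the text (such as Colec11, Susd4, C8g, receptors and untested components) were named after their values were seen. Some genes of the lists count in their totals but are not reported here by name. The members and lists were chosen with earlier results of these data known. Alternatives were median-of-ratios scaling, DESeq2 1.42.0, limma-voom (limma 3.58.1), other filters, an adjusted p under 0.01, a replicate block, leaving out each library and, chosen after seeing the data, library totals without composition factors.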

Additional observations from a re-analysis of the deposited data

How the results depend on the processing

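Of the 6 tested complement genes, C3, Masp1, Serping1, Cd59a and C1s1 kept their direction and their call in all 13 alternative fits, with log2 fold changes of 4.08 to 4.16 for C3, -11.71 to -8.51 for Masp1, -4.59 to -3.71 for Serping1, 3.65 to 4.06 for Cd59a and -0.40 to -0.30 for C1s1. C1ra was not called in any of them, and its log2 fold change ran from -0.018 (without wild-type-labelled replicate 3) to 0.16 when 1 library was left out. Of the other named genes, C1rl ran from -0.17 to 0.014 when 1 library was left out, turning positive without that same library, and C1qbp turned to 0.03 with library totals, neither of them called, and the cause was not tested. Counts of called genes stayed within 1.5 times in every alternative. Without the filter on low counts 3 of the 9 genes were higher, C4b being the third. The replicate block left the counts at 2 higher and 3 lower, with 5765 higher and 6238 lower over all genes. Replicate numbers did not pair the libraries: deviations from the group means of same-numbered libraries correlated at -0.0028 to 0.0181. Depth limits C4b, Cfb, Cd55 and most terminal components, and uncounted shared exons limit Cfb and C2.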

Other observations

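Of the 4 nearest tested genes around C3, 3 were higher in null-labelled libraries, each by less than C3, and 1 was lower. Gpr108, 6.78 kilobases beyond the start of C3, had 90.5 ± 1.87 CPM in null-labelled and 33.2 ± 0.910 CPM in wild-type-labelled libraries (SD, n = 3; log2 fold change 1.45 ± 0.044 SE, edgeR adjusted p = 1.18e-233). Trip10, the next gene, had a log2 fold change of 0.37 ± 0.036 (SE), Tnfsf9 on the other side had -4.76 ± 0.57 (SE) and Slc25a23 had 1.01 ± 0.14 (SE). Beside Masp1, St6gal1 was higher by 0.65 ± 0.056 (log2 fold change, SE) and the interferon-induced gene Rtp4 was lower by -6.44 ± 0.29 (SE). Farther out, Gm6640 had 0.76 ± 0.073 and Gm6630 -0.0077 ± 0.32 (SE). Around Serping1, Gm19426 had -2.39 ± 0.26, Ube2l6 -1.16 ± 0.075 and Ypel4 -0.48 ± 0.2 (SE). Timm10, a mitochondrial chaperone on the side of Ube2l6, had 0.091 ± 0.065 (SE; edgeR adjusted p = 0.191). Fbxo3, before Cd59a, had 0.43 ± 0.036 (SE).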
